A study of Mus musculus with 28 samples.

Results

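The change in cerebellar RNA between postnatal days 3 and 7 (P3 and P7) was read from the 4 of 28 two-colour arrays that paired 1 P3 mouse with 1 P7 mouse by their source names, 8 of the 56 mice in the series. On 2 of these arrays the Ts1Cje mouse was at P3 and the euploid mouse at P7, and on the other 2 the Ts1Cje mouse was at P7 and the euploid mouse at P3. Within each pair the P7 sample carried Cy5 on 1 array and Cy3 on the other. Each log2 ratio was signed as P7 minus P3, so that the mean of the 4 arrays balances both genotype and dye, and a log2 value of 1 is a 2-fold higher level at P7. Ts1Cje mice carry a distal segment of mouse chromosome 16 (Mmu16) in 3 copies, together with a small deletion on chromosome 12, and model part of Down syndrome. Both genotypes had the strain label B6EiC3SnF1/J A/a, no mouse received a treatment, and each sample was the total RNA of the whole cerebellum of 1 mouse. The other 24 arrays (16 with both mice at 1 stage, 4 for P0 to P3 and 4 for P7 to P10) held other mice and set the residual spread of each gene and the comparison with the neighbouring steps.

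During the first postnatal week the granule cell precursors of the external granule layer divide under sonic hedgehog from Purkinje cells, leave the cell cycle and migrate inward past Bergmann glia. Purkinje cells extend their dendrites in the same period, astrocytes mature, and oligodendrocytes begin to make myelin. In whole cerebellum, fewer cells of a type and less RNA per cell cannot be told apart. An array ratio also carries no level, so the tissue label was not checked against the levels of its markers.

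Sex moved together with age on these arrays and has to be read beside every result. By the series text each array paired a male with a female, and no label gives the sex of a mouse. Xist, the RNA that coats the inactive X chromosome in females, was lower in the P7 mouse on all 4 arrays, with log2 values of -2.72 and -3.56 where Ts1Cje was at P3 and -4.84 and -5.50 where it was at P7. Eif2s3y, a translation factor gene of the Y chromosome, was higher in the P7 mouse on all 4, at 1.40, 0.74, 1.97 and 2.31. Age and sex therefore cannot be told apart within the 4 arrays. The older mouse also had the lower Xist signal on all 4 arrays of P0 to P3 (-5.17 to -3.03) and on the 3 arrays of P7 to P10 that measured it (-4.72 to -1.92). Among the same-stage arrays, in contrast, Xist was higher in the Ts1Cje mouse on 7 and lower on 8 of the 15 that measured it, so a fit over all arrays can hold a term for Xist beside those for age.

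Such a fit, with the Xist ratio of each array as an added term, used the 26 arrays that had an Xist value. Its Xist term passed an adjusted p below 0.05 for 2 genes only, Xist itself and Olfr1238, an olfactory receptor gene. All 303 genes and unnamed probes called for P3 to P7 in the fit without Xist kept their direction, and all 303 had an unadjusted p below 0.05. They were called on nearly the same arrays, which favours both outcomes, so nothing is read from this. The added term raised the median standard error from 0.397 to 0.450, and 76 of the 303 kept an adjusted p below 0.05. Of the 48 called genes named here by rule, 22 kept their call and 26 lost it, and the adjusted p of those lost is given where each group is described. The Xist term was not called for the Y-linked genes Eif2s3y (slope -0.098) and Uty (slope -0.443), with an adjusted p of 1 for both. With the term in the fit the P3-to-P7 change of Eif2s3y went from 1.60 to 1.20 and that of Uty from 2.06 to 0.22. How far the term accounts for sex was not tested.

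**Figure D1:**
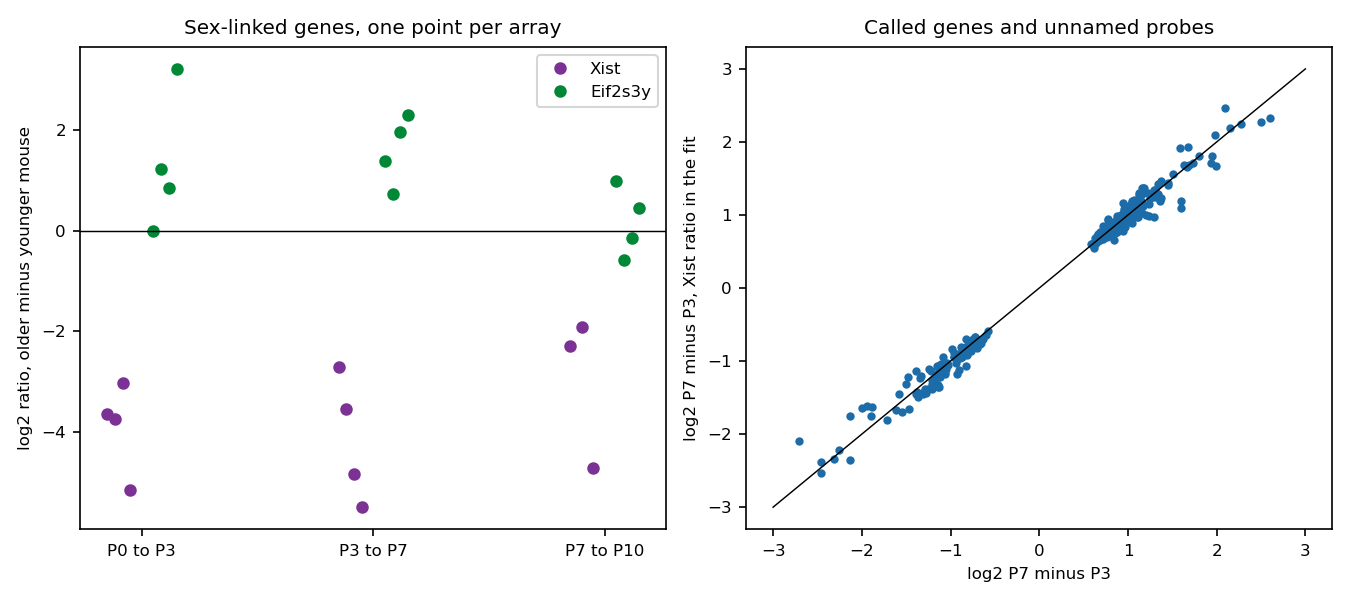
Left, the log2 ratio of the older over the younger mouse for Xist and Eif2s3y on each cross-stage array, by step; right, the P7-minus-P3 log2 change of the 303 called genes and unnamed probes without (horizontal) and with (vertical) the Xist ratio in the fit, beside the line of equal values. Xist lay below 0 on all 11 arrays that measured it. All 303 changes kept their sign, from which nothing is read because they were called on nearly the same arrays.

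The P3-to-P7 step changed 303 of 21041 genes and unnamed probes tested at an adjusted p below 0.05 (limma, Benjamini-Hochberg), of which 244 had a symbol. At P7, 201 were higher (0.955% of those tested) and 102 were lower (0.485%). The rises included the myelin gene Mbp, the astrocyte genes Aqp4 and Gfap and the neuronal factor Neurod1, and the falls included the cyclin Ccnd1, the retinoic acid-degrading enzyme Cyp26b1, the glial filament Vim and neuronatin, Nnat. Of the 276 called with a value on all 4 arrays, 273 moved the same way on all 4. Over the 16850 genes and unnamed probes with 4 values, 28.4% did. The calls rest on the mean of these same 4 values, which favours such agreement, so nothing is read from this contrast. A fold of at least 2 was reached by 48.2% of the called genes and unnamed probes. At an unadjusted p below 0.05, 1537 were higher (7.3%) and 1268 lower (6.03%), and the median change over all tested was -0.002.

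The called set depended on which arrays were used. Without 1 of the 4 arrays the counts fell to between 18 and 94 higher and between 14 and 44 lower. The smallest counts came without Ts1Cje P3 / euploid P7 replicate 2 (18 and 14) and without Ts1Cje P7 / euploid P3 replicate 1 (20 and 18). Without Ts1Cje P3 / euploid P7 replicate 1 they were 65 and 43, and without Ts1Cje P7 / euploid P3 replicate 2 they were 94 and 44. All 303 kept their sign in each. Since 273 of the 276 with 4 values had the same sign on all 4, nothing is read from this. The 4 arrays on their own, without the spread of the other 24, gave no call (smallest adjusted p = 0.354, with 2686 at an unadjusted p below 0.05), and an exact sign-flip test of 4 values cannot go below p = 0.125.

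All 6 pairs of the 4 arrays correlated positively. The Spearman correlation between signed arrays, across genes and not across replicates, was 0.34 and 0.20 for the pairs that shared a dye orientation and 0.10 to 0.16 for the 4 pairs that did not. The label of genotype was read from genes in 3 copies: the Ts1Cje-minus-euploid difference over the same 4 arrays had a median of 0.11 over the 58 such genes tested, 40 of them above 0, beside a median of -0.002 and 49.8% above 0 over all genes and unnamed probes. Each of the 4 arrays gave values for 19442 to 21619 genes and unnamed probes, and the number of arrays limits the precision. Of the other arrays, Ts1Cje P7 / euploid P7 replicate 4 gives its euploid mouse as P7 by source name but as P3 by stage label, and Ts1Cje P10 / euploid P7 replicate 2 had a Spearman correlation of 0.004 with the mean of its step mates. Ts1Cje minus euploid on the first averaged -0.065 over the 201 called higher and 0.001 over the 102 called lower. On the other arrays with both mice at P7 these means ran from -0.158 to 0.113 and from -0.121 to 0.156. The median P3-to-P7 changes of these sets were 0.96 and -1.06, in a fit that took the first as P7. Taking the first as a further P3/P7 array left 6 called higher and 8 lower. All 48 called genes named here by rule stayed called without the second, when 296 were higher and 151 lower in all. Every value below is listed in the order Ts1Cje P3 / euploid P7 replicates 1 and 2, then Ts1Cje P7 / euploid P3 replicates 1 and 2.

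Of the myelin genes, Mbp, Trf and Sirt2 rose, Mbp by the most. Mbp, which encodes myelin basic protein, was at 2.95, 2.19, 3.31 and 1.56 on the 4 arrays, a mean of 2.50 ± 0.47 (SE) or 5.66-fold higher at P7 (adjusted p = 0.00896). Every array lay above 1.5 on the log2 scale. Trf, the iron carrier transferrin that oligodendrocytes make, was at 1.86, 1.16, 1.58 and 1.23 and rose 2.75-fold (adjusted p = 0.0381, or 0.145 with the Xist term). Sirt2, a tubulin deacetylase of myelin sheaths, was at 0.82, 0.97, 0.92 and 0.61 and rose 1.78-fold (adjusted p = 0.00902). The 4 values of Sirt2 were close to each other, with an SD of 0.16. Mag, the myelin-associated glycoprotein, was at 1.73 and 0.63 on the first pair of arrays and at 1.06 on the only array of the other pair that measured it, and missed the threshold (mean 1.17, adjusted p = 0.0944). Cnp, an enzyme of non-compact myelin, was above 0 on all 4 arrays, from 0.14 to 2.14, and missed it as well (mean 0.92, adjusted p = 0.189).

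Olig1, a transcription factor of oligodendrocyte precursors, moved the other way. Its values were -1.16, -1.32, -0.86 and -0.29, a mean of -0.90 ± 0.18 (SE), 1.87-fold lower at P7 (adjusted p = 0.015). Olig1 is one of the genes in 3 copies in Ts1Cje, and the pair of arrays with Ts1Cje at P7 lay above the pair with Ts1Cje at P3. Over the oligodendrocyte list, 3 of 31 tested members rose and 1 fell, 19 were above 0 and the median change was 0.24. At an unadjusted p below 0.05, 8 of the 31 were higher and 4 lower. Over all genes and unnamed probes tested, 0.955% were called higher and 0.485% lower, 7.3% and 6.03% passed the unadjusted threshold, and 49.9% were above 0.

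Astrocyte genes split between 2 rises and 1 fall. Aqp4, the water channel of astrocyte endfeet, had the smallest p of all tested together with Cyp26b1 (adjusted p = 0.000137). Its values were 1.39, 1.92, 1.70 and 1.54, a mean of 1.64 ± 0.18 (SE) and a 3.11-fold rise. Gfap, the intermediate filament of mature astrocytes, was at 2.35, 1.12, 1.75 and 1.71 and rose 3.32-fold (adjusted p = 0.0157, or 0.0954 with the Xist term). Vim, the intermediate filament vimentin of radial and immature glia, was at -1.01, -0.96, -1.49 and -1.16 and fell 2.23-fold (adjusted p = 0.0017). The 4 arrays of each of these genes lay well apart from 0, so the glial filament genes Gfap and Vim moved in opposite directions on every array. Slc1a3, the glutamate transporter of Bergmann glia, was between -0.55 and -0.28 on all 4 arrays but missed the threshold (mean -0.41, adjusted p = 0.228). Over the list of 36 tested members the median was -0.03, with 17 above 0. Beside these stand 0.955% called higher, 0.485% called lower and 49.9% above 0 over all tested.

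Of the granule neuron and Purkinje cell markers, Neurod1, Kcnj6 and Slc1a6 rose. Slc1a6 was the only 1 of 22 Purkinje cell markers tested that was called higher, and 1 was called lower. Neurod1, a basic helix-loop-helix factor of differentiating granule neurons, was at 0.41, 1.13, 1.48 and 0.84, a mean of 0.97 ± 0.17 (SE) and a 1.95-fold rise (adjusted p = 0.00676). Kcnj6, which encodes the GIRK2 potassium channel, was at 0.52, 0.74, 1.22 and 1.92 and rose 2.14-fold (adjusted p = 0.0403, or 0.19 with the Xist term). Kcnj6 is present in 3 copies in Ts1Cje, and its values were again higher on the pair of arrays with Ts1Cje at P7. Slc1a6, the EAAT4 glutamate transporter of Purkinje cells, was at 0.73, 0.89, 0.84 and 0.61 and rose 1.70-fold (adjusted p = 0.00861). Its 4 values spanned less than 0.3. Of the 22 granule neuron markers tested, 2 rose, none fell, 19 were above 0 and the median was 0.25, beside 0.955% called higher and 49.9% above 0 over all tested. By array the list median was 0.30, 0.35, 0.23 and 0.13.

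Several neuronal markers that define their cell types did not pass. Gabra6, a GABA receptor subunit of mature granule neurons, was at 0.34, 2.02, -0.75 and 0.65 (mean 0.56, adjusted p = 0.835). Nfia (0.43, adjusted p = 0.162) was above 0 on all 4 arrays, and Neurod2 averaged 0.10 (adjusted p = 0.898). The Purkinje cell markers Pcp2 (0.13, adjusted p = 0.867), Calb1 (-0.22, adjusted p = 0.644) and Car8 (-0.49, adjusted p = 0.221) did not pass either. The 95% interval of Gabra6 ran from -0.97 to 2.10, that of Pcp2 from -0.28 to 0.54 and that of Calb1 from -0.57 to 0.13.

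Foxp2, a forkhead transcription factor that Purkinje cells express early, fell. Its values were -1.24, -1.70, -3.28 and -1.36, a mean of -1.89 ± 0.37 (SE) and a 3.72-fold fall (adjusted p = 0.01, or 0.0835 with the Xist term). Dab1, an adaptor of the reelin signal that places Purkinje cells, was at -0.45, -0.33, -4.41 and -0.24 and did not pass (adjusted p = 0.195), its mean of -1.36 being set by Ts1Cje P7 / euploid P3 replicate 1. Among 22 tested Purkinje cell markers 1 rose and 1 fell, with 11 on either side of 0 and a median of -0.02. Among all tested, 0.955% were called higher, 0.485% were called lower and 49.9% were above 0.

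**Figure D2:**
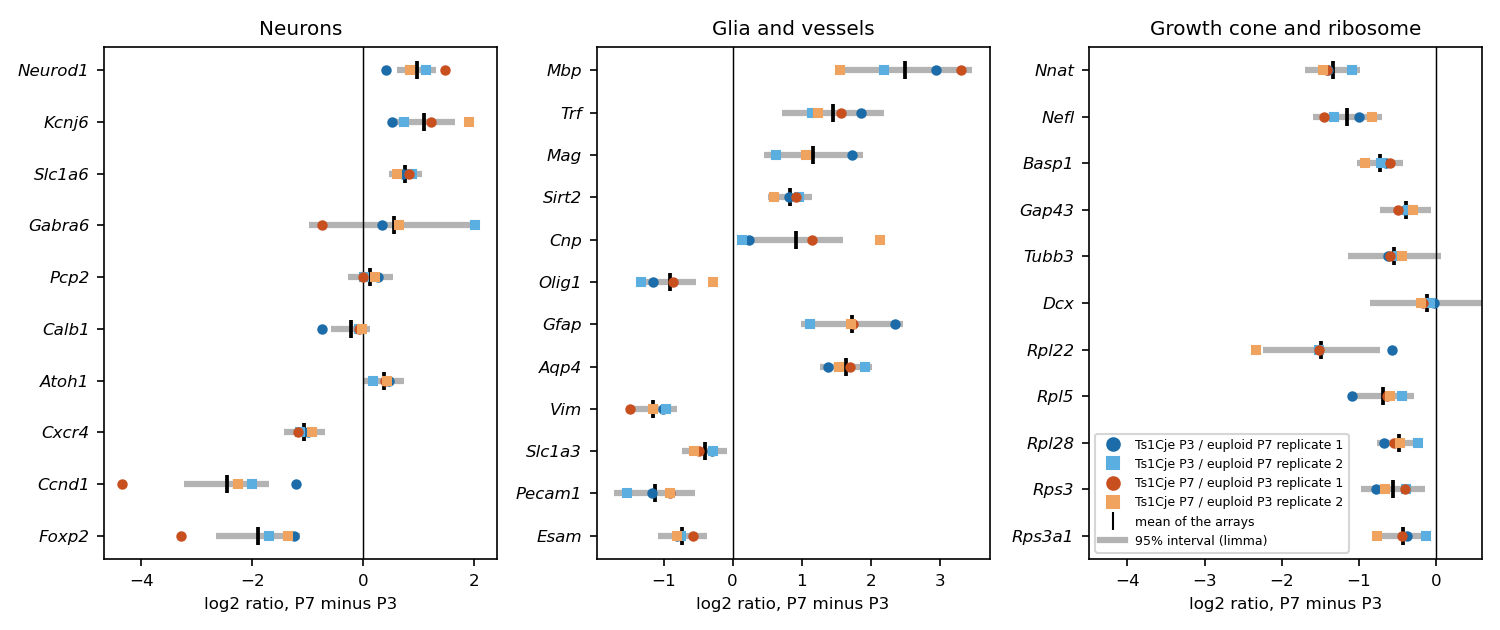
P7-minus-P3 log2 ratios (horizontal axis) of cell type, growth cone and ribosome genes on each of the 4 arrays (coloured points), with the mean (black tick) and its 95% interval from limma (grey bar). Mbp, Gfap and Aqp4 lay above 1 on all 4 arrays, and Cxcr4, Vim, Nnat and Ccnd1 lay below -0.9 on all 4.

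The genes of dividing granule cell precursors changed in part. Ccnd1, the G1 cyclin D1 that hedgehog signalling induces in these precursors, was at -1.22, -2.01, -4.34 and -2.25, a mean of -2.46 ± 0.37 (SE) and a 5.48-fold fall (adjusted p = 0.0017), the largest mean fall among called genes with a symbol and the same sign on 4 arrays. It lies on chromosome 7 at 144929931 to 144939831 (GRCm38.p6). Cxcr4, the chemokine receptor that keeps precursors in the external granule layer, was at -0.999, -1.14, -1.18 and -0.92 and fell 2.08-fold (adjusted p = 0.00508). The spread of Cxcr4 was the narrower, with an SD of 0.12 beside 1.33 for Ccnd1. Atoh1, the factor that specifies granule cell precursors, was above 0 on all 4 arrays and missed the threshold (mean 0.37, adjusted p = 0.359). Nhlh2 (0.54, adjusted p = 0.078), Mycn (-0.11, adjusted p = 0.91) and Barhl1 (0.12, adjusted p = 0.924) missed it too. Over the 22 precursor markers tested, none rose, 2 fell and 12 were above 0, with a median of 0.07 that turned to -0.12 with the Xist term. The shares over all tested were 0.955% called higher, 0.485% called lower and 49.9% above 0.

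Hedgehog targets other than Ccnd1 gave no call. Gli1, the transcription factor that hedgehog signalling induces, was at 0.22, 0.46, -0.13 and 1.70 (adjusted p = 0.844). Ptch1, the receptor, averaged 0.10 (adjusted p = 0.966) and Smo, the signal transducer, averaged -0.02 (adjusted p = 0.988). The cilium genes Ift88 (-0.82, adjusted p = 0.227) and Kif7 (0.30, adjusted p = 0.455) had the smallest p after Ccnd1. Of 20 members tested 1 fell, beside 0.485% called lower over all tested. The list median was 0.04 without the Xist term and -0.17 with it.

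DNA replication and cell division genes likewise moved little. Pcna, the sliding clamp of DNA polymerases, was at -0.80, -0.62, -0.82 and -0.91, a mean of -0.79 ± 0.15 (SE) and a 1.72-fold fall (adjusted p = 0.00954, or 0.0594 with the Xist term), the only call among 49 replication genes tested. Fen1, a flap endonuclease that acts with Pcna, was above 0 on all 4 arrays at 0.48 to 0.80 (adjusted p = 0.0626), and Uhrf1 at 0.39 to 0.64 (adjusted p = 0.134). The helicase subunits Mcm2 (-0.22) and Mcm3 (0.07) were not called. The replication list had 33 of 49 members below 0 and a median of -0.15. None of 54 cell division genes passed, 31 were below 0 and the median was -0.06. Over all tested, 0.485% were called lower, 0.955% were called higher and 49.9% were above 0. Plk1, a mitotic kinase, averaged -0.62 (adjusted p = 0.0747), Tpx2 -0.58 (adjusted p = 0.184), Top2a -0.33 (adjusted p = 0.472), Mki67 0.54 (adjusted p = 0.214) and Cdk1 0.44 (adjusted p = 0.35). Proliferation markers thus lay on both sides of 0.

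Most members of the microtubule and growth cone list were lower at P7. The list also holds other neuronal genes, among them the neurofilament gene Nefl and the imprinted gene Nnat. Of 38 tested, 3 fell, none rose, 32 were below 0 and the median change was -0.39, beside -0.002 over all genes and unnamed probes. Of all tested, 0.485% were called lower, 0.955% were called higher and 49.9% were above 0. At an unadjusted p below 0.05, 16 of the 38 were lower (6.03% of all tested were) and 1 was higher. The list median was -0.38, -0.27, -0.54 and -0.30 on the 4 arrays. Nnat, the imprinted gene neuronatin of developing brain, was at -1.40, -1.09, -1.41 and -1.47, a mean of -1.34 ± 0.17 (SE) and a 2.53-fold fall (adjusted p = 0.000958). Nefl, the light neurofilament, was at -0.998, -1.32, -1.45 and -0.82 and fell 2.21-fold (adjusted p = 0.00861). Basp1, a membrane protein of growing axon tips, was at -0.65, -0.72, -0.59 and -0.92 and fell 1.65-fold (adjusted p = 0.0136, or 0.0765 with the Xist term). Gap43, its relative in growth cones, was between -0.49 and -0.30 on all 4 arrays and missed the threshold (mean -0.39, adjusted p = 0.26), as did Tubb3 (-0.54, adjusted p = 0.448) and Dcx (-0.12, adjusted p = 0.946).

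Ribosomal protein genes had a negative median with few calls. Of 64 cytosolic ribosomal protein genes tested, 59 were below 0, the median was -0.35, and 21 were lower at an unadjusted p below 0.05 with none higher, beside 6.03% lower and 7.3% higher over all tested. Only Rpl22 (0.485% of all tested were called lower) passed the adjusted threshold, at -0.56, -1.52, -1.51 and -2.34, a 2.79-fold fall (adjusted p = 0.0449, or 0.206 with the Xist term). Rpl5 averaged -0.69 (adjusted p = 0.0845), Rpl28 -0.48 (adjusted p = 0.0913), Rps3 -0.56 (adjusted p = 0.178), Rps3a1 -0.43 (adjusted p = 0.227) and Rps4x -0.28 (adjusted p = 0.873). The list median was -0.56, -0.25, -0.34 and -0.21 on the 4 arrays, so all 4 lay below 0. Ribosomal protein genes have many processed pseudogenes, and cross-hybridisation of their probes was not tested. Respiratory chain and ATP synthase genes had 54 of 65 members below 0, a median of -0.25 and array medians between -0.25 and -0.15, with no call and 7 lower and 1 higher at an unadjusted p below 0.05, beside the same 6.03% and 7.3%.

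**Figure D3:**
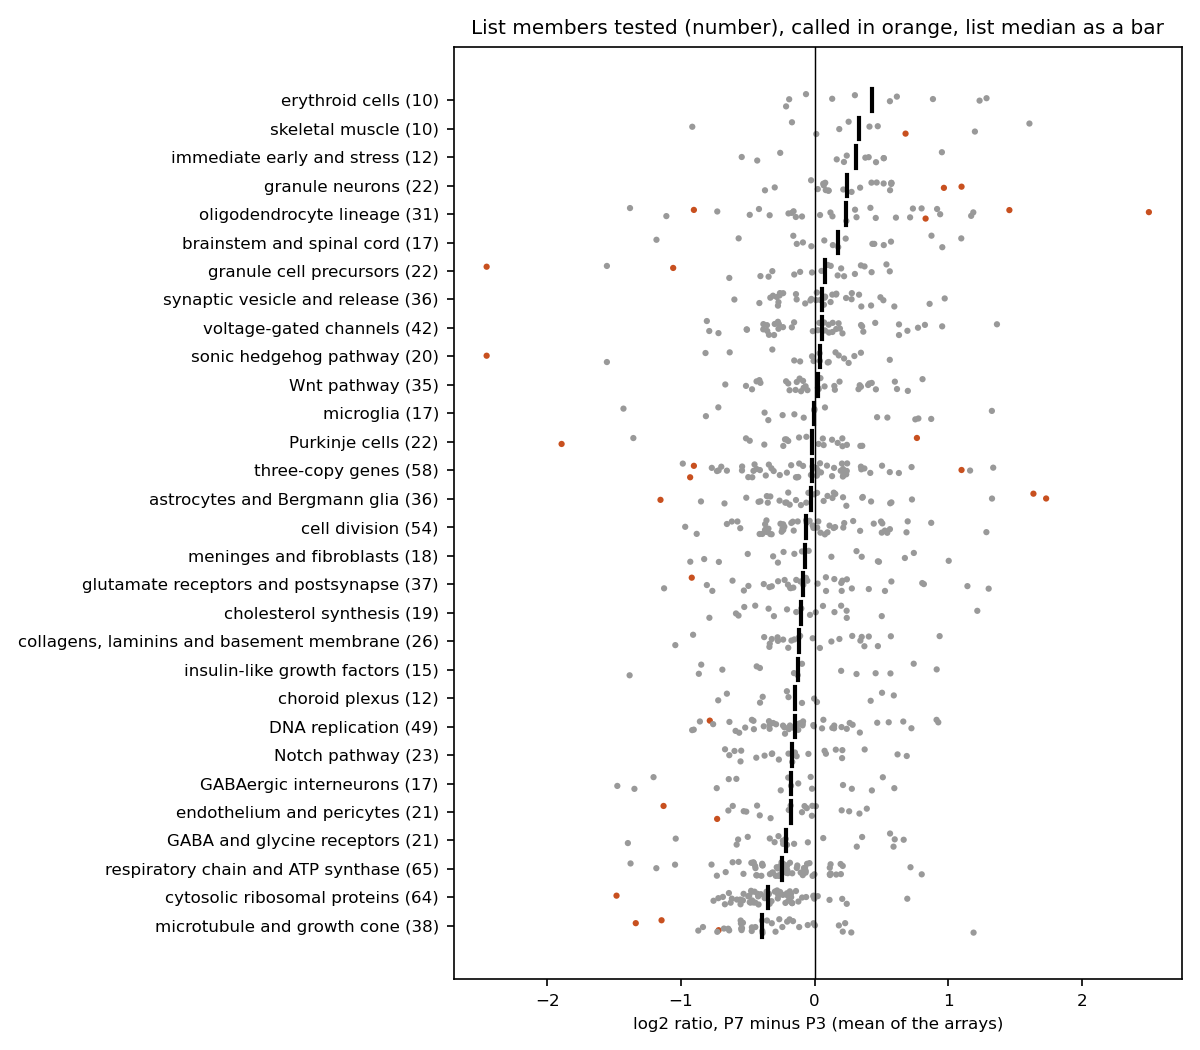
P7-minus-P3 log2 change (horizontal axis) of every tested member of 30 gene lists, with the number tested in parentheses, called members in orange and the list median as a black bar. The microtubule and growth cone, ribosomal and respiratory chain lists had the lowest medians, at -0.39, -0.35 and -0.25.

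Endothelial and receptor genes added a few falls. Pecam1, an adhesion molecule between endothelial cells, was at -1.17, -1.53, -0.91 and -0.91 and fell 2.19-fold (adjusted p = 0.0436, or 0.176 with the Xist term). Esam, a tight-junction molecule of endothelium, was at -0.81, -0.74, -0.57 and -0.80 and fell 1.66-fold (adjusted p = 0.0329, or 0.0954 with the Xist term). Cldn5 (-0.51, adjusted p = 0.342) and Cdh5 (-0.41, adjusted p = 0.443), further junction genes of vessels, were below 0 on all 4 arrays without passing. Among 21 endothelial and pericyte markers tested, 16 were below 0, with a median of -0.18. By array the list median was -0.15, -0.46, 0.24 and -0.32, so the arrays did not all go the same way. The shares over all tested were 0.485% called lower, 0.955% called higher and 49.9% above 0. Cnih2, an auxiliary subunit of AMPA receptors, was at -0.54, -1.03, -1.51 and -0.59 and fell 1.89-fold (adjusted p = 0.0269, or 0.0819 with the Xist term). It was the only call among 37 glutamate receptor and postsynaptic genes, whose median was -0.09. Nlgn1, a postsynaptic adhesion protein, was below 0 on all 4 arrays (mean -0.77, adjusted p = 0.2), and Grik2, a kainate receptor subunit, averaged 1.30 over 3 arrays (adjusted p = 0.151). The AMPA receptor subunits Gria1 (-0.32), Gria2 (0.09) and Gria3 (0.41) were not called.

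The other pathway lists held no call. These were synaptic vesicle and release genes (36 tested, median 0.06), voltage-gated channels (42, 0.05), GABA and glycine receptors (21, -0.22), the Notch (23, -0.17) and Wnt (35, 0.02) pathways, insulin-like growth factors (15, -0.13), cholesterol synthesis (19, -0.10) and collagens, laminins and basement membrane (26, -0.11). Interneuron markers (17, -0.18), microglia (17, -0.003), choroid plexus (12, -0.15), meninges and fibroblasts (18, -0.07) and brainstem and spinal cord (17, 0.18) had none either. Over all tested, 0.955% were called higher and 0.485% were called lower. At these shares lists of such sizes would hold few calls or none, so nothing is read from their absence.

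Markers of muscle and blood were measured in the same comparison, and Des was the only one called. Of 10 skeletal muscle genes 8 were above 0, with a median of 0.33, beside 49.9% above 0 and 0.955% called higher over all tested. Des, which encodes desmin, was at 0.12, 0.81, 1.15 and 0.64 and rose 1.60-fold (adjusted p = 0.0391, or 0.0955 with the Xist term), while Ckm, the muscle creatine kinase, ranged from 0.15 to 3.22 (mean 1.61, adjusted p = 0.0559). Acta1 averaged 1.20 over 3 arrays (adjusted p = 0.51) and Myh8 averaged 0.47 (adjusted p = 0.675). Of 10 erythroid genes 7 were above 0, with a median of 0.43 and array medians from -0.17 to 0.55 and no call. Immediate early and stress genes had a median of 0.31 over 12, 9 of them above 0, and array medians of -0.13 and 0.37 with Ts1Cje at P3 and of 0.38 and 0.35 with Ts1Cje at P7. The part of muscle, blood or handling in the other results was not tested.

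The largest rises also included genes outside the fixed lists. Qrfprl, a receptor related to that of a RFamide peptide, had the largest mean, 2.61 ± 0.61 (SE), but its values were 1.24, 0.46, 1.27 and 7.45, so that Ts1Cje P7 / euploid P3 replicate 2 set most of it (adjusted p = 0.0313). Sntn, which encodes a protein of the tips of motile cilia, was at 0.79, 0.79, 1.02 and 5.13 (adjusted p = 0.0486), again with that array far above the others. Fgd2, an exchange factor for Cdc42, was at 2.06, 1.04, 3.37 and 2.64, a 4.85-fold rise (adjusted p = 0.00532). Fgf1, a fibroblast growth factor, was at 0.76, 1.14, 3.27 and 2.74, a 3.94-fold rise (adjusted p = 0.00676). Pramel4 showed the same split at 0.38, 0.55, 3.80 and 3.26 (adjusted p = 0.0192). For Fgf1 and Pramel4 the pair of arrays with Ts1Cje at P7 lay above the pair with Ts1Cje at P3 without overlap. With the Xist term Qrfprl, Sntn and Pramel4 were no longer called (adjusted p = 0.188, 0.194 and 0.154).

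The remaining large rises were more even or rested on 1 array. Msmb, a secreted microseminoprotein, was at 1.86, 1.04, 4.38 and 1.30 (adjusted p = 0.00902) and Rab40c at 1.18, 0.60, 2.87 and 0.85 (adjusted p = 0.0256). The long non-coding RNA gene 4930449E18Rik was at 1.23, 2.14, 1.44 and 1.93, a 3.21-fold rise (adjusted p = 0.0014), and Mir205hg, the host gene of a microRNA, was at 0.75, 1.24, 2.23 and 1.82 (adjusted p = 0.00902). Psg17, a pregnancy-specific glycoprotein gene of a large family whose members a probe may not tell apart, was at 1.51, 1.26, 1.58 and 1.12 (adjusted p = 0.00904). With the Xist term Msmb (adjusted p = 0.054) and Rab40c (adjusted p = 0.172) were no longer called. Eif2s3y is the other member of the 15 largest rises, at 1.60 ± 0.36 (SE) and adjusted p = 0.0236, and it went to 1.20 with an adjusted p of 0.171 when the Xist term was in the fit.

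Cyp26b1 led the falls by p. It encodes an enzyme that degrades retinoic acid and lies on chromosome 6 at 84571414 to 84593908. Its values were -1.66, -1.67, -3.04 and -2.16, a mean of -2.13 ± 0.24 (SE) and a 4.38-fold fall (adjusted p = 0.000137). Enc1, an actin-binding kelch protein of developing neurons, was at -0.12, -1.26, -2.74 and -2.23 (adjusted p = 0.00676), and Gnal, the olfactory-type G protein alpha subunit, was at -0.74, -1.69, -1.68 and -1.89 (adjusted p = 0.0017). Plk2, an activity-regulated kinase of neurons, was at -0.51, -2.60, -1.54 and -1.24 (adjusted p = 0.0288), and Necab1, a neuronal calcium-binding protein, at -0.91, -0.93, -1.12 and -2.53 (adjusted p = 0.0371). Lig4, a DNA ligase of double-strand break repair, was at -0.88, -0.52, -2.15 and -2.93 (adjusted p = 0.00904). Mavs, an adaptor of antiviral signalling, was at -0.52, -1.46, -0.81 and -5.22 (adjusted p = 0.047) and Ess2 at -0.15, -0.81, -4.59 and -2.24 (adjusted p = 0.0201). For each, 1 array with Ts1Cje at P7 lay more than 2 below the next on the log2 scale. Defa3, of the defensin family, averaged -1.71 (adjusted p = 0.0251), Scx, a tendon transcription factor, -1.39 (adjusted p = 0.02) and Dnah14, a dynein heavy chain, -1.39 (adjusted p = 0.0433), each below 0 on all 4 arrays. With the Xist term the adjusted p was 0.054 for Enc1, 0.0536 for Necab1, 0.209 for Mavs, 0.171 for Ess2, 0.0667 for Defa3, 0.0769 for Scx and 0.232 for Dnah14, so these calls were lost.

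**Figure D4:**
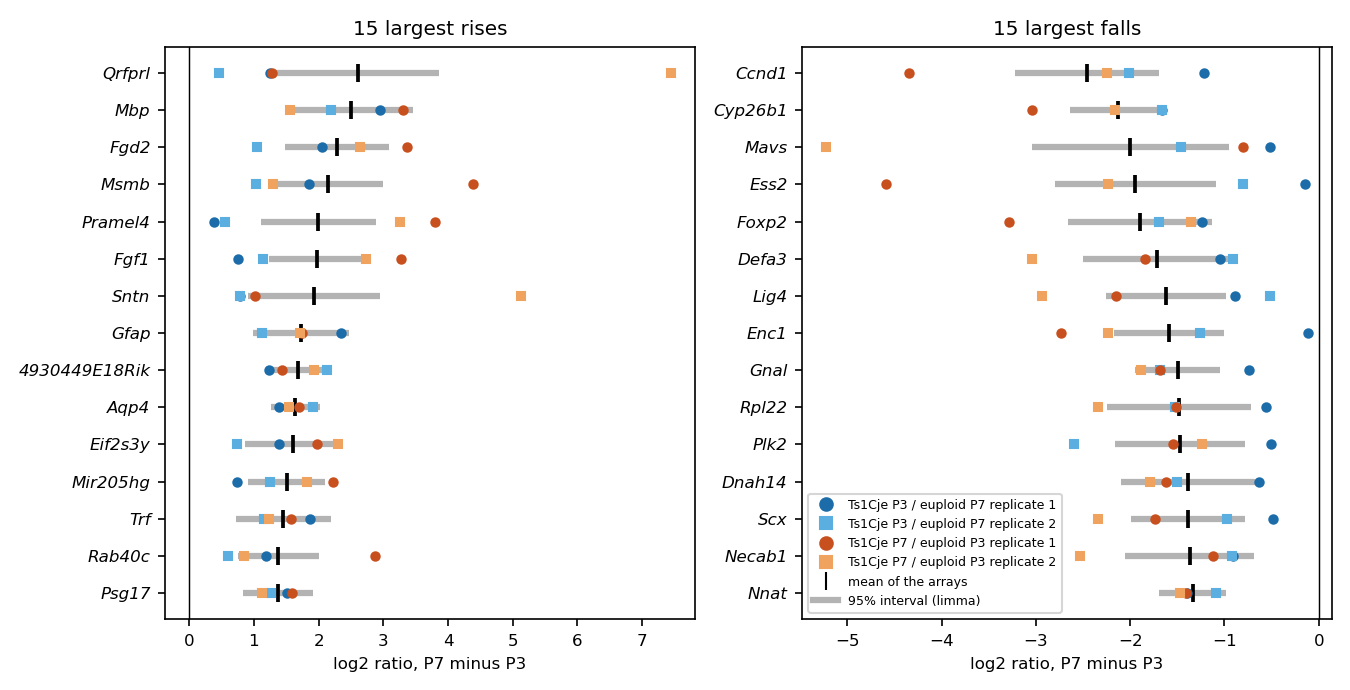
P7-minus-P3 log2 ratios (horizontal axes) of the 15 largest rises and 15 largest falls among called genes with a symbol and the same sign on 4 arrays, as single arrays (coloured points), mean (black tick) and 95% interval from limma (grey bar). For Qrfprl, Sntn and Mavs, Ts1Cje P7 / euploid P3 replicate 2 lay far from the other 3 arrays, at 7.45, 5.13 and -5.22.

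A small core stayed called whichever of the 4 arrays was left out. It held 17 genes and unnamed probes, among them Aqp4, Ccnd1, Cyp26b1, Gnal, Nnat, Vim and 4930449E18Rik. The 9 further genes with a symbol were not among those named by rule and were picked out here after their values were seen. Uchl1, a neuronal ubiquitin hydrolase, was at -1.25, -1.003, -1.11 and -1.17 (adjusted p = 0.00122), with its 4 arrays within 0.25 of each other. Fscn1, the actin-bundling fascin of growth cone filopodia, was at -0.96, -1.41, -1.36 and -0.96 (adjusted p = 0.00122). Cspg5, the neural proteoglycan neuroglycan C, averaged -1.12 (adjusted p = 0.0017), Syt5, a vesicle calcium sensor, -1.31 (adjusted p = 0.0045), Serpini1, the neuronal protease inhibitor neuroserpin, -0.95 (adjusted p = 0.00217) and Dtx4, a Deltex-family ubiquitin ligase, -1.21 (adjusted p = 0.00195). Trp53inp1, a p53-induced gene, averaged 1.04 (adjusted p = 0.0028), Myh14, a non-muscle myosin heavy chain, 1.03 (adjusted p = 0.00229) and Ubtd1 0.99 (adjusted p = 0.00471). All 9 also passed with the Xist term (adjusted p from 0.00466 to 0.0283).

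The stretch of 250 bases before the start that the promoter table gives is shown for 2 genes that fell and 2 that rose with a narrow spread or a small p, to put the sequence beside the measured change (RefSeq, GRCm38.p6, 5′ to 3′ on the gene's strand). The capitals mark 3 short motifs searched on both strands, the CCAAT box (CCAAT), the GC box (GGGCGG) and 1 E-box form (CAGCTG). The windows are chr6:84593811-84594060 (minus strand), chr2:132253181-132253430 (minus), chr2:79456637-79456886 (minus) and chr10:78780246-78780495 (plus). The table gives 1 start for each of these genes, and the window of Slc1a6 lies inside, and that of Cyp26b1 partly inside, the full annotated extent of the gene.
Cyp26b1: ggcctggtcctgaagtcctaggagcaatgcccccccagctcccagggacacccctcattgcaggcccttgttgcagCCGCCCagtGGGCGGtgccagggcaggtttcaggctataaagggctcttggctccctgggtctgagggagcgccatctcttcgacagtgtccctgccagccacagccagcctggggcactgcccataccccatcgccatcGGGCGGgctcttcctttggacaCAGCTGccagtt
Pcna: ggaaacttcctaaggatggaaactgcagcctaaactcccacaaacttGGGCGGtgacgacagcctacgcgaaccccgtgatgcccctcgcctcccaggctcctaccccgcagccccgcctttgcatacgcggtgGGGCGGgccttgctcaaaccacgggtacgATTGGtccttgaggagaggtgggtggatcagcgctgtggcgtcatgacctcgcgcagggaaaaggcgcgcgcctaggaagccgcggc
Neurod1: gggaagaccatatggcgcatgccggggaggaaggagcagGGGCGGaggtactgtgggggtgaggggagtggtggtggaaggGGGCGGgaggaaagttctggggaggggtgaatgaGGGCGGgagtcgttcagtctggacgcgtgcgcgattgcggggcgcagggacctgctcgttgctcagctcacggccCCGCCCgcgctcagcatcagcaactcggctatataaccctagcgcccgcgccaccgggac
Slc1a6: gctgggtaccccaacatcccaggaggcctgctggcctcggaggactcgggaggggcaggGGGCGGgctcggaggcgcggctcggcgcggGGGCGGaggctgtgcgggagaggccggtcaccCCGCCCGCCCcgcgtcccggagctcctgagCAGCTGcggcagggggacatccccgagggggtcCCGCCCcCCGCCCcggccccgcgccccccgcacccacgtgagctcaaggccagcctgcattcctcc
The same motifs were counted over all genes with a window. A window was found for 120 of the 150 called higher, 66 of the 94 called lower and 13980 of the 17413 genes with a symbol that were tested. The GC box was in 45% of those called higher, 59.1% of those called lower and 47.8% of all, the CCAAT box in 32.5%, 36.4% and 35.8%, and the E-box in 12.5%, 7.58% and 11.9%. A match is a description of letters and not a binding site.

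The same genes were followed over the neighbouring steps, which used other arrays and other mice. Over P0 to P3, 5 of all tested passed (0.0238%), and over P7 to P10, 1 passed (0.00475%), with 1521 and 1979 at an unadjusted p below 0.05. The 5 were Aqp4, which rose (1.70, an increase close to that of the next step), Cd209a, Mgat3 and TCRA, which fell, and an unnamed probe that rose. The 1 was Sez6l2, a brain-expressed seizure-related gene, which rose by 2.03 over P7 to P10 and had a P3-to-P7 value of -0.25. Array agreement also differed between steps: each P3-to-P7 array had a Spearman correlation of 0.16 to 0.26 with the mean of its 3 step mates, beside -0.06 to -0.02 for P0 to P3 and -0.05 to 0.12 for P7 to P10. The counts of calls therefore compare steps whose arrays agreed to different degrees. They also moved with single arrays: without Ts1Cje P7 / euploid P10 replicate 1 the P7-to-P10 step had 192 higher and 73 lower, and without Ts1Cje P0 / euploid P3 replicate 1 the P0-to-P3 step had 21 higher and 13 lower.

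The genes called for P3 to P7 had lower or mixed values over the step before. Of the 201 called higher, 28 were above 0 over P0 to P3, with a median of -0.29, beside 49.8% above 0 over all tested, and 150 were above 0 over P7 to P10, with a median of 0.12, beside 51.6%. Of the 102 called lower, 41 were below 0 over P0 to P3 and 65 over P7 to P10, with medians of 0.05 and -0.12. The difference between the P3-to-P7 and P0-to-P3 changes passed for 247 genes and unnamed probes (1.17%). It contains the P3-to-P7 change by which the genes here were chosen, so nothing is read from how many of them passed it. Xist was lower in the older mouse on all 8 arrays of both steps, with means of -3.90 and -4.15. No difference between the P3-to-P7 and P7-to-P10 changes passed (0%, with 1999 at an unadjusted p below 0.05 and a smallest adjusted p of 0.0723), but 35 were higher and 76 lower without Ts1Cje P7 / euploid P10 replicate 1. For the difference from P0 to P3, leaving out 1 array of either step gave from 24 to 273 higher and from 4 to 86 lower, the fewest without Ts1Cje P3 / euploid P7 replicate 2.

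The values of single genes over the 3 steps, P0 to P3, P3 to P7 and P7 to P10, are given with the difference between the first and second, which the choice of genes by the second step favours. Ccnd1 was at 0.59, -2.46 and -0.26 over the 3 steps, and its difference between the first and second step was -3.04 (adjusted p = 0.00685). Cxcr4 was at 0.17, -1.06 and -0.54 (difference -1.23, adjusted p = 0.0177), Vim at -0.11, -1.15 and -0.61 (-1.05, adjusted p = 0.0347) and Pcna at 0.21, -0.79 and -0.83 (-0.99, adjusted p = 0.0248). Cyp26b1 was at -0.38, -2.13 and -1.67 (-1.75, adjusted p = 0.0147) and Nnat at -0.32, -1.34 and -0.63 (-1.02, adjusted p = 0.0435). Of the rises, Slc1a6 was at -0.37, 0.77 and 0.35 (1.13, adjusted p = 0.0086), Sirt2 at -0.21, 0.83 and 0.14 (1.04, adjusted p = 0.0214) and Fgf1 at -0.11, 1.98 and -0.22 (2.09, adjusted p = 0.0424). Mbp, in contrast, was at 1.55, 2.50 and 0.74 and Gfap at 0.81, 1.73 and -0.03, and their differences between steps did not pass (adjusted p = 0.589 and 0.459). The genes with the smallest p for this difference were the transcripts 1700027I24Rik (2.11), 4930451G09Rik (1.91) and 4930449E18Rik (2.25), each negative over P0 to P3 and positive over P3 to P7. With the Xist term the P3-to-P7 changes of 1700027I24Rik and 4930451G09Rik were no longer called (adjusted p = 0.0598 and 0.054).

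**Figure D5:**
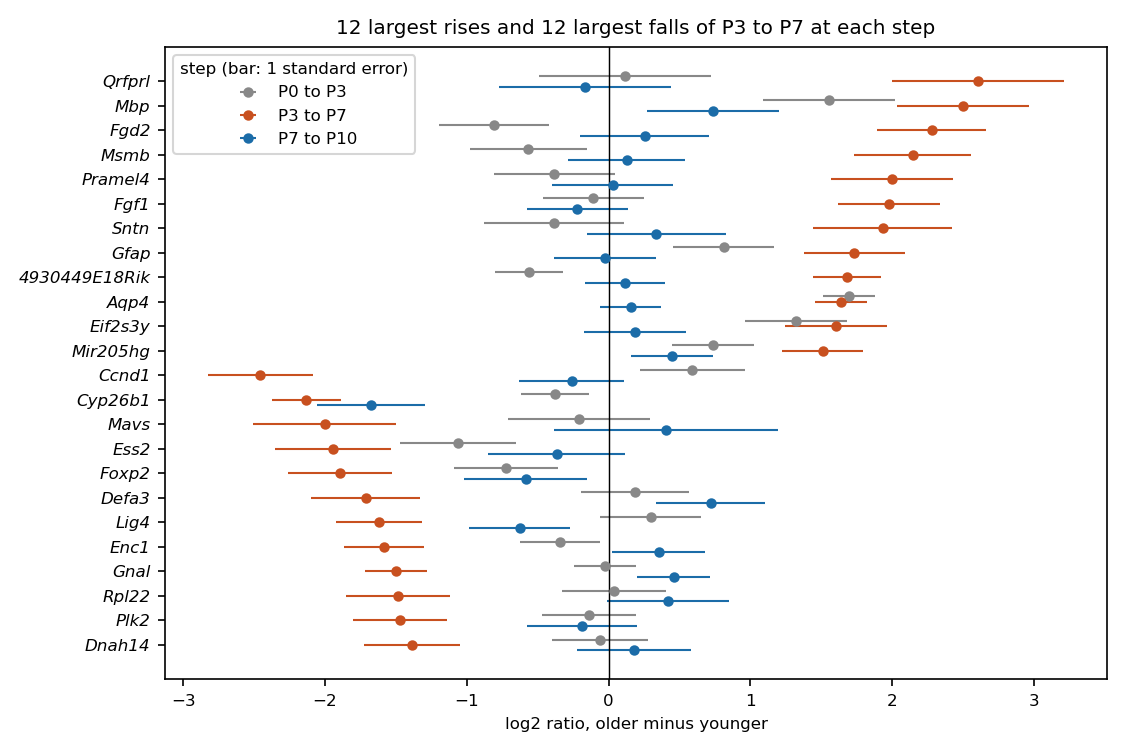
Log2 change of the older minus the younger mouse (horizontal axis) over P0 to P3, P3 to P7 and P7 to P10 for the 12 largest rises and the 12 largest falls of P3 to P7, with bars of 1 standard error. Aqp4 rose by a similar amount over the first and second step (1.70 and 1.64), whereas Ccnd1 was at 0.59 before it fell by 2.46.

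Whether the change differed between genotypes was tested as the Ts1Cje effect at P7 minus that at P3. The P3/P7 arrays alone cannot give this difference, because the mice on each differed in both age and genotype. The test rests on the fit over all arrays, which includes those with both mice at P3 or both at P7. No gene or unnamed probe passed (0%, with 739 at an unadjusted p below 0.05 and a smallest adjusted p of 1), at a median SE of 0.525, and the absence of a call does not show that the genotypes changed alike. The smallest p values belonged to Cypt12, Rasd2 and 4833411C07Rik, none of them changed from P3 to P7. Of 58 three-copy genes tested, 1 rose and 2 fell over P3 to P7, 28 were above 0 and the median was -0.02, beside 0.955% called higher, 0.485% called lower and 49.9% above 0 over all tested. Sim2, a transcription factor gene of the three-copy segment, was at -0.62, -1.31, -0.95 and -0.84 and fell 1.91-fold (adjusted p = 0.0391), and the others were Olig1 and Kcnj6. Sod1, the first gene of that segment, was at -1.58 and -1.19 where Ts1Cje was at P3 and at -0.11 and 0.01 where it was at P7, so the pairs did not overlap and were ordered by which mouse carried 3 copies (mean -0.72, adjusted p = 0.271). Hunk (0.22) and Mrap (-0.03) were not called.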

How the data were processed

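Whole cerebella of individual Ts1Cje and euploid mice were compared on two-colour pangenomic mouse arrays of 25344 probes. The authors scanned the arrays, subtracted background, excluded control spots, irregular spots and spots near local background, and normalized each array by local LOWESS; what they deposited is a log2 ratio, Cy5 relative to Cy3, per probe and array, and excluded spots are missing. A removed dim spot hides a gene that is off at 1 stage, and a normalization centred on 0 hides a shift of all genes.

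Probes were named through accessions and symbols in RefSeq tables (20626 with 1 symbol, 4718 with none), and probes of a symbol were averaged per array, giving 23219 genes and unnamed probes. Of these 21041 had values on at least 14 of 28 arrays and 3 of the 4 P3/P7 arrays with 5 residual degrees of freedom, and were tested. The model of the methods, with 7 parameters (3 stage effects and 4 genotype effects), was fitted with limma 3.58.1 (lmFit, eBayes) in R 4.3.3 over all 28 arrays. A call is a Benjamini-Hochberg adjusted p below 0.05. Intervals are 95%. On simulated data with 200 changed genes among 21041, the P3-to-P7 test recovered 16 of 100 changes of log2 1 and 62 of 100 of log2 2, with 9 false calls. The simulated noise was normal and independent between arrays and genes, without single arrays that stand apart and without an effect of sex. These rates may therefore not hold for the real arrays. P-values measure the spread between these mice and arrays.

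Named by rule were the 15 largest rises and 15 largest falls called with a symbol and the same sign on 4 arrays, the 3 members of smallest p and the first 3 tested members of each list, the 3 genes of smallest p for each difference, Xist, and called three-copy genes. For lists without a call, other than cell division, only counts and medians are given. The members, lists and tests were chosen with earlier results of these data known. Alternatives covered dye, array weights, scaling, centring, filters, probe averaging, moderation, left-out arrays and the Xist ratio.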

Additional observations from a re-analysis of the deposited data

Results flagged for a closer look

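Single arrays stood apart from the other 3 for several genes, with a gap beyond Dixon's 95% value for 4 samples, which chance passes in about 1 of 20 groups. On Ts1Cje P7 / euploid P3 replicate 2 these were Qrfprl (7.45), Sntn (5.13), Uty, a Y-linked gene (4.99), Necab1 (-2.53) and Plk1 (-0.22). On Ts1Cje P7 / euploid P3 replicate 1 it was Dab1 (-4.41). On Ts1Cje P3 / euploid P7 replicate 2 they were Ift88 (0.51) and Hunk (-0.51), and on replicate 1 Calb1 (-0.74) and Smo (0.42). Among list medians, Ts1Cje P7 / euploid P3 replicate 2 stood apart for granule cell precursors (0.051) and the respiratory chain (-0.15), and Ts1Cje P3 / euploid P7 replicate 1 for astrocytes and Bergmann glia (-0.23) and immediate early and stress genes (-0.13).

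The P3-to-P7 change differed from the P0-to-P3 change for 20 of the 103 genes named by rule (limma contrast, adjusted p below 0.05). Over all tested, 1.17% passed. Many of the named genes were chosen by their P3-to-P7 change, which this contrast contains, and some by the contrast itself. Nothing is therefore read from this count. The difference was positive for Fgd2 (3.09), Msmb (2.71), 4930449E18Rik (2.25), 1700027I24Rik (2.11), Fgf1 (2.09), 4930451G09Rik (1.91), Psg17 (1.61), Slc1a6 (1.13) and Sirt2 (1.04). It was negative for Ccnd1 (-3.04), Lmna (-2.42), Lig4 (-1.92), Cyp26b1 (-1.75), Pecam1 (-1.60), Olig1 (-1.47), Gnal (-1.47), Cxcr4 (-1.23), Vim (-1.05), Nnat (-1.02) and Pcna (-0.99).

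For Rasd2 the signal was higher in the Ts1Cje mouse than in the euploid mouse on every P3/P7 array, and for 4833411C07Rik it was lower. The P7-minus-P3 values therefore had opposite signs on arrays with Ts1Cje at P7 and on arrays with Ts1Cje at P3. These signs describe a difference between genotypes and not opposite changes with age. The half-difference between the pairs was 0.39 for Rasd2 and -0.88 for 4833411C07Rik, and this difference was not tested.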

How the results depend on the processing

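No paired analysis was possible because the labels used here carry neither replicate numbers nor litters, and each array held different mice. None of the 48 called genes named by rule reversed under any alternative. The rule took the largest rises and falls with the same sign on 4 arrays, so nothing is read from this. All 48 stayed called with a dye term, array weights, no moderation or centring. With the Xist ratio 22 did, with arrays scaled to one spread 17 did, and with the 4 arrays alone none did. The P3-to-P7 counts (higher and lower) were 0 and 0 for the 4 arrays alone, 1 and 5 for arrays whose title begins with ATJ, 6 and 8 with the array of conflicting labels as a further one, 401 and 229 without moderation, 1537 and 1268 unadjusted, 32 and 18 scaled, 558 and 288 with array weights, 60 and 30 with the Xist ratio, 741 and 439 with dye term and weights (chosen after seeing the data), and 18 to 296 and 14 to 151 without 1 array, the highest (chosen after seeing the data) without Ts1Cje P10 / euploid P7 replicate 2. P0-to-P3 counts were 6 higher with a dye term, 1 and 1 with weights, 1 and 0 with the Xist ratio, and 1 to 21 and 2 to 13 without 1 array. P7-to-P10 counts were 0 higher with weights or the Xist ratio and 0 to 192 and 0 to 73 without 1 array. The difference from P0 to P3 had 107 lower with a dye term, 307 higher with weights, and 24 to 273 and 4 to 112 without 1 array. The difference from P7 to P10 had 1 and 1 with weights and 0 to 35 and 0 to 76 without 1 array. The Xist and left-out-array settings for these other comparisons were chosen after seeing the data. The cause of these shifts was not tested.

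Values that changed sign were all near 0 or uncalled. These were the medians of cholesterol synthesis (0.003, 4 arrays alone), choroid plexus (0.24, ATJ arrays), granule cell precursors (-0.12) and hedgehog (-0.17, both with the Xist ratio), and Barhl1 (-0.017, ATJ arrays), Smo (0.028, conflicting array added), Gli1 (-0.064), Ptch1 (-0.17) and Mcm3 (-0.25, all 3 with the Xist ratio). Mcm3 was also -0.12 with weights and -0.15 with dye and weights, Mrap 0.004 scaled, 0.10 with weights and 0.062 with dye and weights, and 4833411C07Rik -0.14 with weights and -0.18 with dye and weights. Without 1 array, Gria2 ran from -0.021 to 0.196, Cypt12 ran from -0.733 to 0.167, Smo ran from -0.133 to 0.063, Mrap ran from -0.367 to 0.343, 4833411C07Rik ran from -0.32 to 0.369, the voltage-gated channel median ran from -0.051 to 0.066, Ptch1 ran from -0.042 to 0.304, Myh8 ran from -0.077 to 0.752 and Mcm3 ran from -0.862 to 0.658. The number of arrays limits the precision.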
